A study of Mus musculus with 8 samples.

Results

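The immunoglobulin heavy chain variable genes (Ighv) encode the part of the antibody heavy chain that meets the antigen. They were taken as the gene entries of the count table whose Ensembl identifier has, in GENCODE M21 on GRCm38, a symbol beginning with Ighv and the biotype of a variable gene, which gave 113 of the 51826 genes in all. RNA sequencing covered total splenocytes of 8 female BALB/c mice that were not injected with pristane and were 3 months of age at harvest. The 4 tRA mice had received 1 mg/kg body weight of tRA (all-trans-retinoic acid, the active metabolite of vitamin A) by mouth each day from weaning, and the 4 control mice had received canola oil, the vehicle. The sample notes state the tRA dose for all 8 mice, so the groups follow the sample titles. Red blood cells were lysed during isolation and no cell type was sorted. Total counts on genes were 37539631, 31833853, 35924683 and 30919272 in control mice 1 to 4, and 33755595, 31810417, 35165876 and 32042754 in tRA mice 1 to 4. The comparison asks whether low-dose tRA changed the expression of these genes in the spleen before any induction of lupus.

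Each B cell joins 1 variable, 1 diversity (D) and 1 joining gene of the heavy chain locus by V(D)J recombination, and the promoter of the chosen variable gene then drives the heavy chain message. In a spleen, RNA assigned to an Ighv gene therefore comes mostly from the B cells and plasma cells that carry its rearrangement, and a plasma cell holds far more of it than a resting B cell. Variable genes are grouped by sequence into families, which carry the first number in the symbol. The reference locus is that of C57BL/6, and BALB/c mice carry another haplotype, so a count on 1 gene may include RNA of a BALB/c gene that resembles it. In these bulk samples, fewer cells of a type and less RNA per cell cannot be told apart.

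All 113 genes lay on the minus strand of chromosome 12, between positions 113578504 and 116000461. Of the B cell markers 12 of 12 were tested; Cd79a, the signalling chain of the B cell receptor, was the most abundant with a mean of 1396 CPM in control mice and 1271 CPM in tRA mice. CPM are counts relative to the TMM-scaled size of each library. T cell markers summed to 1742 ± 189 CPM (SD, n = 4) in control mice and 1833 ± 50.2 CPM in tRA mice, and macrophage and dendritic cell markers to 512 ± 59.2 and 505 ± 96.7 CPM. Of the Ighv genes, 87 passed the filter on low counts and were tested, and 26 did not. Of those 26, 6 had 0 counts in all 8 mice and 20 had between 2 and 80 counts in total.

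Summed over the 113 genes, the level was 588, 671, 510 and 800 CPM in control mice 1 to 4, and 389, 670, 715 and 607 CPM in tRA mice 1 to 4. The groups overlapped, with tRA mouse 1 the lowest of the 8 mice and control mouse 4 the highest. The means were 642 ± 124 CPM (SD, n = 4) in control mice and 595 ± 145 CPM in tRA mice, a ratio of 0.927, which is within the spread between mice. On the log2 scale this difference was −0.11, and it turned to 0.049 without tRA mouse 1 and to 0.014 without control mouse 4. The counts behind these sums were 21732, 21549, 17657 and 24745 in control mice, and 12728, 21285, 26383 and 19867 in tRA mice.

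No single Ighv gene passed the test. A p that misses the threshold does not show that values did not differ. By edgeR quasi-likelihood with Benjamini-Hochberg adjustment, 0 of the 87 Ighv genes tested had an FDR under 0.1, beside 0% of the 16484 genes tested, and the lowest FDR of an Ighv gene was 0.757. DESeq2 with Benjamini-Hochberg adjustment called 0 of the 75 Ighv genes and 27 of the 13625 genes in all to which it gave an adjusted p. At an unadjusted p under 0.05, edgeR gave 5 Ighv genes (5.75%), 2 higher and 3 lower in tRA mice, beside 6.49% of all genes tested (2.94% higher and 3.55% lower). DESeq2 gave 5 of 107 Ighv genes at that p and 1247 of 29805 in all. The groups did not overlap for 0 of the 87 Ighv genes, beside 3.54% of all genes tested (1.91% with tRA mice above and 1.63% with tRA mice below).

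The log2 fold change (tRA over control) was above 0 for 36 of the 87 genes and below 0 for 51 (58.6%, beside 49.7% of all genes tested). Its median was −0.09, beside 0.0014 over all genes tested, and single genes ranged from −1.32 to 0.62. The side on which the median fell rested on single mice, since it was 0.069 without tRA mouse 1 and 0.0042 without control mouse 2. tRA mouse 1 held the lowest value of the 8 mice in 52 of the 87 genes and the highest in 0. Control mouse 3 was lowest in 26 genes, whereas control mouse 4 was highest in 30.

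tRA mouse 1 was also the lowest of the 8 mice in the sums of light chain kappa variable and heavy chain constant genes. The light chain kappa variable genes (Igkv, 100 genes) summed to 1797, 1876, 1695 and 2219 CPM in control mice 1 to 4, and to 1252, 1967, 1805 and 1646 CPM in tRA mice 1 to 4. Heavy chain constant genes summed to between 11296 and 13302 CPM in control mice, and to 9219 CPM in tRA mouse 1 with between 10306 and 11751 CPM in the other tRA mice. Of the 8 constant genes, tRA mouse 1 was lowest for Ighm (7598 CPM, against 8427 to 11727 CPM in the other mice) and the 4 Ighg genes, but not for Ighd (1428 CPM, against 1273 to 1694 CPM), Igha or Ighe. In tRA mouse 1 the 12 B cell markers summed to 8232 CPM, within the range of the control mice (7664 to 8867 CPM), and the 12 plasma cell markers to 1166 CPM, below that range (1266 to 1456 CPM). Of the plasma cell markers, tRA mouse 1 had the lowest value of the 8 mice for Jchain (367 CPM) and the highest for Irf4 (367 CPM), and the sums of tRA mice 3 and 4 were 1034 and 1023 CPM. Macrophage and dendritic cell markers summed to 370 CPM in tRA mouse 1, against 465 to 600 CPM in the other mice. Its 7 erythroid markers summed to 2321 CPM, and those of control mouse 3 and tRA mouse 3 to 2476 and 3708 CPM, against 522 to 1609 CPM in the other 5 mice. The part of these cell types in the Ighv levels was not tested.

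Levels of the Ighv genes differed far more between genes than between groups. Per kb of exon, the genes tested ranged from 0.687 to 105 CPM per kb with a median of 8.14 CPM per kb, a 152-fold range. Of all 113 genes, Ighv9-3 had the highest level (105 CPM per kb), followed by Ighv7-1 (87.1), Ighv3-6 (84.1), Ighv2-2 (79.8), Ighv6-6 (68.5), Ighv3-1 (63.4), Ighv5-6 (56.3) and Ighv2-9 (55.3 CPM per kb). All 8 lay in the part of the locus nearest to the D segments or in the middle part. The locus was divided by gene order into 3 blocks, of 38 genes nearest to the D segments, 37 in the middle and 38 farthest from them. Median levels per gene in these blocks were 14.2, 4.54 and 2.07 CPM per kb.

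**Figure D1:**
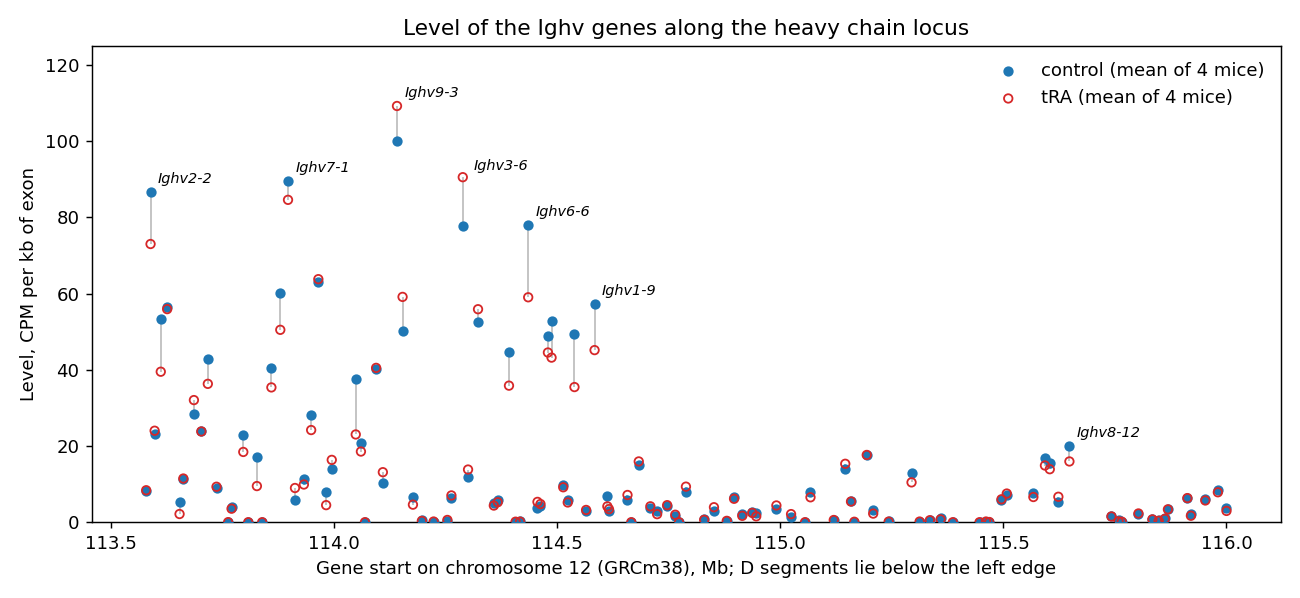
Level of each of the 113 Ighv genes in CPM per kb of exon (vertical axis) against the start of the gene on chromosome 12 in Mb, GRCm38 (horizontal axis). Filled points are means of the 4 control mice, open points are means of the 4 tRA mice, and a grey line joins both; the highest levels lie toward the D segments at the left, and no gene of the block farthest from them exceeds 17.98 CPM per kb as a mean of all 8 mice.

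The share of the Ighv level held by each block was alike in both groups. The block nearest to the D segments held 57.3 ± 4.05% (SD, n = 4) in control mice and 57.0 ± 1.14% in tRA mice. The middle block held 32.4 ± 3.61% and 32.7 ± 1.13%, and the farthest block 10.3 ± 1.45% and 10.3 ± 0.296%. For each block the groups overlapped. Control mouse 3 had the highest share in the nearest block (62.5%) and control mouse 4 the lowest (52.7%).

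Ighv9-3 (ENSMUSG00000096459, chr12:114140692-114141122) was measured at 31.2, 38.4, 28.4 and 42.3 CPM in control mice 1 to 4, and at 25.9, 46.6, 47.5 and 33.4 CPM in tRA mice 1 to 4. The groups overlapped, with tRA mouse 1 lowest and tRA mouse 3 highest, and the log2 fold change was 0.13 ± 0.19 (SE). It ran from 0.0076 to 0.28 with a mouse left out. Ighv7-1 (ENSMUSG00000076665, chr12:113896408-113896946), the gene of the germline-encoded antibodies to phosphorylcholine, was measured at 27.3, 35.2, 35.2 and 32.4 CPM in control mice, and at 16.3, 46.1, 31.5 and 29.0 CPM in tRA mice. Here tRA mice 1 and 2 were the lowest and the highest of all 8, so that both extremes fell in the tRA group. The log2 fold change of Ighv7-1 was −0.08 ± 0.24, and 0.13 without tRA mouse 1.

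Ighv3-6 (ENSMUSG00000076672, chr12:114288152-114288582) was the most uneven of the abundant genes, at 20.97, 22.5, 11.4 and 53.8 CPM in control mice 1 to 4, and at 30.1, 29.6, 39.6 and 27.5 CPM in tRA mice 1 to 4. The lowest and the highest mouse were both controls, and the 4 tRA mice lay between them. Its log2 fold change was 0.23 ± 0.36 (SE), which became 0.79 without control mouse 4 and −0.039 without control mouse 3. In control mouse 4 it held 6.73% of the Ighv counts (95% Wilson interval 6.43 to 7.05%), and in tRA mouse 1 it held 7.75% (7.29 to 8.22%), the largest share of any Ighv gene in those mice. In control mouse 3 it held 2.23% (2.02 to 2.45%), where Ighv7-1 was the leading gene with 6.90% (6.53 to 7.28%). Ighv9-3 led in the other 5 mice, with shares from 5.30% to 6.95%. These intervals cover counting error only.

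The next abundant genes were steadier between control mice than Ighv3-6, but not between tRA mice. Ighv2-2 (chr12:113588267-113588702) was at 28.3, 29.9, 29.1 and 34.7 CPM in control mice, and at 14.7, 27.4, 28.8 and 31.9 CPM in tRA mice. Ighv6-6 (chr12:114434788-114435244) was at 24.3, 30.2, 20.7 and 36.3 CPM in control mice, and at 13.8, 28.4, 22.5 and 19.6 CPM in tRA mice. In both genes tRA mouse 1 was lowest and control mouse 4 highest, with log2 fold changes of −0.25 ± 0.19 (SE) and −0.40 ± 0.22. With a mouse left out, these ran from −0.37 to −0.055 and from −0.58 to −0.24. For Ighv3-1, Ighv5-6 and Ighv2-9 the group means were 22.1 ± 5.15 and 22.3 ± 6.58 CPM (SD, n = 4), 19.97 ± 1.79 and 19.7 ± 5.38 CPM, and 21.8 ± 6.35 and 18.3 ± 4.84 CPM in control and tRA mice. The log2 fold changes of these 3 were 0.018, −0.016 and −0.25, each within 2 SE of 0. That of Ighv2-9 ran from −0.42 to −0.073 with a mouse left out.

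By family, Ighv1 with its 53 genes held the largest share of the Ighv level, 21.04 ± 1.79% (SD, n = 4) in control mice and 20.5 ± 1.013% in tRA mice. Ighv2 followed with 17.3 ± 0.504% and 15.7 ± 1.21%, Ighv3 with 11.0 ± 2.12% and 13.3 ± 1.22%, and Ighv5 with 11.3 ± 0.467% and 11.5 ± 0.538%. The shares were 8.84 ± 0.505% and 10.4 ± 0.822% for Ighv9, 8.40 ± 1.57% and 9.09 ± 1.40% for Ighv7, and 6.99 ± 0.416% and 5.99 ± 0.583% for Ighv6. For every family the groups overlapped, both in summed CPM and in share. Within families the genes tested tended to 1 side in some cases: the log2 fold change was above 0 for 4 of 4 genes of Ighv3 and 4 of 4 of Ighv9, and below 0 for 7 of 8 of Ighv2. Since genes of a family share sequence and reads could be assigned to the wrong one, these are not independent values. Over the alternative fits and with mice left out, 4 of 4 of these Ighv3 genes and 2 of 4 of Ighv9 reversed at least once, while the 7 of Ighv2 kept their side. Per gene, median levels were 30.3 CPM per kb in Ighv2 and 3.24 CPM per kb in Ighv1, while Ighv1 had the most genes.

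**Figure D2:**
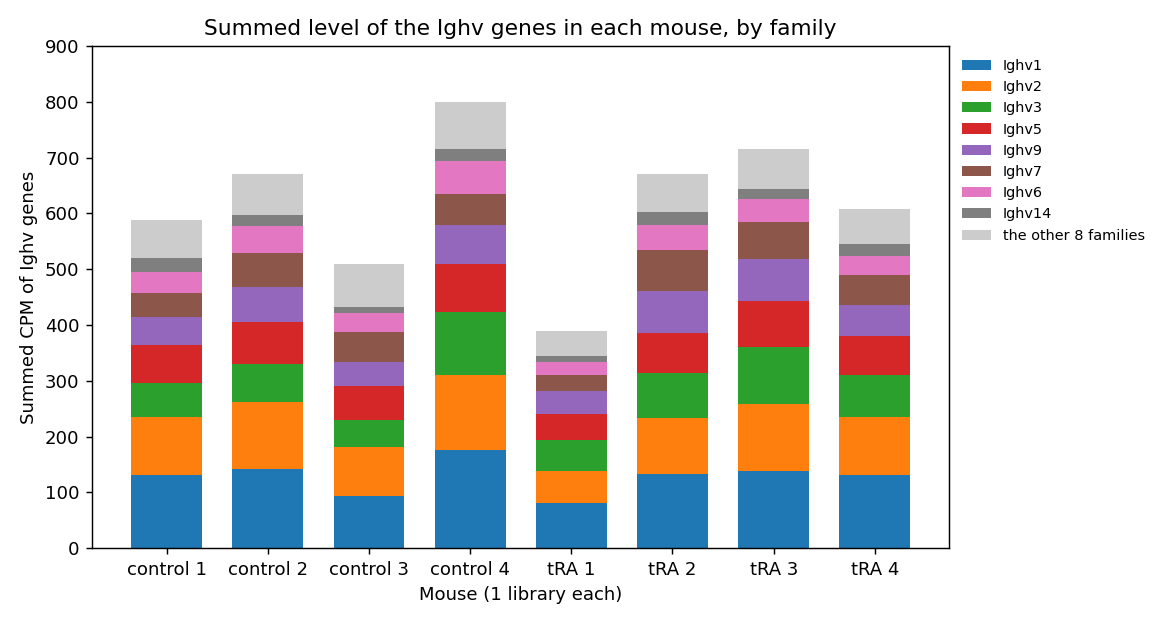
Summed level of the Ighv genes in CPM (vertical axis) in each of the 8 mice (horizontal axis), divided by family as colored segments. The sums run from 389 CPM in tRA mouse 1 to 800 CPM in control mouse 4, and the groups overlap.

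The evenness of use was summarized by the effective number of genes, the exponential of the Shannon entropy of the shares, which equals the number of genes if all are used alike. It was 51.1, 50.6, 46.2 and 48.4 in control mice 1 to 4, and 50.0, 49.4, 47.8 and 50.7 in tRA mice 1 to 4. The groups overlapped, with means of 49.1 ± 2.24 and 49.5 ± 1.22 (SD, n = 4). The 10 most abundant genes of a mouse held from 39.9% to 45.1% of its Ighv counts. Between 98 and 104 of the 113 genes had at least 1 count in a mouse.

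Ighv genes varied between mice of a group more than most genes did. The median coefficient of variation over the 87 genes tested was 30.5% in control mice and 28.2% in tRA mice, against 12.9% and 12.4% over all genes tested. Over the genes between 0.241 and 36.7 CPM, the range of the Ighv genes tested, it was 17.5% and 17.5%. Levels were not matched within that range, and the part of level in the difference was not tested. Igkv genes had medians of 25.2% and 26.6%. In spite of this, the order of the genes was alike in all mice. The Spearman correlation of the levels across the 87 genes tested ran from 0.913 to 0.972 over the pairs of mice, with medians of 0.929 among control mice, 0.966 among tRA mice and 0.953 between the groups. These pairs share mice, and the genes are not independent replicates. Control mouse 3 had the lower correlations among control mice, from 0.913 to 0.923.

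Of the genes higher in tRA mice, the 4 with the lowest unadjusted p were Ighv6-7, Ighv7-2, Ighv9-2 and Ighv8-4. Ighv6-7 (ENSMUSG00000087582, chr12:114455626-114456083) lay between 1.04 and 1.62 CPM in control mice, the highest being mouse 2, and was at 1.59, 2.20, 2.06 and 1.77 CPM in tRA mice. Control mouse 2 alone exceeded the lowest tRA mouse. The log2 fold change was 0.51 ± 0.21 (SE) with an FDR of 0.757 in edgeR quasi-likelihood with Benjamini-Hochberg adjustment, and a two-sided exact permutation test of the 4 against 4 mice gave p = 0.0571, where 0.0286 is the smallest p possible. Ighv7-2 (chr12:113912025-113912483) was at 1.62, 2.68, 1.68 and 2.39 CPM in control mice, and at 1.77, 3.87, 4.04 and 3.15 CPM in tRA mice. tRA mice 2 to 4 were above all control mice and tRA mouse 1 was among them, and the log2 fold change was 0.62 ± 0.27 (two-sided exact permutation p = 0.114). Ighv9-2 and Ighv8-4 had log2 fold changes of 0.36 ± 0.22 and 0.61 ± 0.43, with overlapping groups. With a mouse left out, these ran from 0.21 to 0.49 and from 0.30 to 0.99.

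Of the genes lower in tRA mice, Ighv5-15 (ENSMUSG00000094134, chr12:113826646-113827129) had the lowest unadjusted p of all Ighv genes, 0.0162 in the edgeR quasi-likelihood fit, with an FDR of 0.757 after Benjamini-Hochberg adjustment. It was measured at 5.63, 2.89, 7.11 and 9.14 CPM in control mice 1 to 4, and at 2.72, 3.53, 3.09 and 4.37 CPM in tRA mice 1 to 4. Control mouse 2 lay among the tRA mice and the other 3 controls above them. The log2 fold change was −0.85 ± 0.30 (SE), and the two-sided exact permutation test gave p = 0.114.

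The 3 other genes of this rank were Ighv11-1, Ighv2-4 and Ighv11-2, and in each of them control mouse 3 had the highest value. Ighv11-2 encodes, with Ighv12-3, many of the antibodies to phosphatidylcholine that B-1 cells produce. It (ENSMUSG00000096108, chr12:114048241-114048812) was measured at 12.5, 13.2, 31.8 and 11.8 CPM in control mice 1 to 4, and at 14.7, 12.6, 7.86 and 7.36 CPM in tRA mice 1 to 4. The other 3 control mice lay within the range of the tRA mice. The log2 fold change was −0.71 ± 0.34 (SE) with all mice and −0.24 without control mouse 3. Ighv11-1 (ENSMUSG00000094533, chr12:113981879-113982341) was at 1.81, 2.55, 4.68 and 2.20 CPM in control mice, and at 1.74, 1.95, 1.57 and 1.07 CPM in tRA mice. Its log2 fold change of −0.83 ± 0.31 became −0.47 without control mouse 3. Ighv2-4 (ENSMUSG00000095866, chr12:113653291-113653724) was at 1.11, 0.654, 4.07 and 1.74 CPM in control mice, and at 0.947, 0.441, 0.868 and 0.764 CPM in tRA mice. Its log2 fold change of −1.32 ± 0.50 was the largest in size of the 87 genes, and became −0.63 without control mouse 3. The FDR was 0.757, 0.757 and 0.774 for Ighv11-1, Ighv2-4 and Ighv11-2 in edgeR quasi-likelihood with Benjamini-Hochberg adjustment.

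In control mouse 3 the Ighv11 family held 7.14% of the Ighv counts (95% Wilson interval 6.77 to 7.53%), against 1.32% to 4.23% in the other 7 mice. The other gene of antibodies to phosphatidylcholine, Ighv12-3 (chr12:114366521-114366954), went the other way in that mouse. It was at 2.41, 1.46, 0.693 and 3.65 CPM in control mice 1 to 4, and at 1.59, 1.32, 2.49 and 2.02 CPM in tRA mice 1 to 4, so that control mouse 3 had the lowest value. The 7 B-1 cell markers summed to 476, 492, 562 and 547 CPM in control mice. In tRA mice they summed to 555, 549, 607 and 557 CPM, and 0 of the markers were at 0. Spn was the most abundant, with means of 242 CPM in control mice and 293 CPM in tRA mice, so the sum rests largely on it. Since no cell type was sorted, RNA of these markers can come from cells other than B-1 cells. Control mouse 3 was the highest of the 8 mice for 4 of the 7 (Zbtb32, Cd9, Bhlhe41 and Plscr1) and the lowest control mouse for Ctla4, and its sum lay within the range of the other mice. Their part in the Ighv11-2 level was not tested.

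Ighv11-1 and Ighv11-2 are near copies, and counting could split or mix their reads. Over 353 aligned bases of the reference transcripts they differed at 4, and the stretches below hold all 4, in capitals, and run 5′ to 3′ to the end of the variable exon (minus strand of chromosome 12, GRCm38, GENCODE M21). They are shown since they show how little separates these 2 genes, in each of which control mouse 3 had the highest value.
Ighv11-2: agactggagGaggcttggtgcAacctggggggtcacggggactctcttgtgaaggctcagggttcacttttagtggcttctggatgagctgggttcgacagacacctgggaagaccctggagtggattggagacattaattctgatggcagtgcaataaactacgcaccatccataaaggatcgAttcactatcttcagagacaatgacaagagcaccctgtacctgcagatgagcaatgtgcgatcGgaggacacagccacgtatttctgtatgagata
Ighv11-1: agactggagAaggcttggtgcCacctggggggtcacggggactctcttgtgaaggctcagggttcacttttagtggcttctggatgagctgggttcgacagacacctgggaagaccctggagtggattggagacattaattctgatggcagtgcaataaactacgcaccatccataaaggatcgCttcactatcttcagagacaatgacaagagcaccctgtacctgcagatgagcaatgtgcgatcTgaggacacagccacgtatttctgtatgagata
The levels of Ighv11-1 and Ighv11-2 are thus uncertain one against the other. Reads that fit both could also have been discarded, so their sum is uncertain too. Ighv2-4 differed from each of its nearest genes, Ighv2-2 and Ighv2-5, at 8 of 350 aligned bases. In control mouse 3 Ighv2-2 was at 29.1 CPM, within its range in the other control mice, and Ighv2-5 at 7.14 CPM, against 9.09 to 21.6 CPM in those mice.

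**Figure D3:**
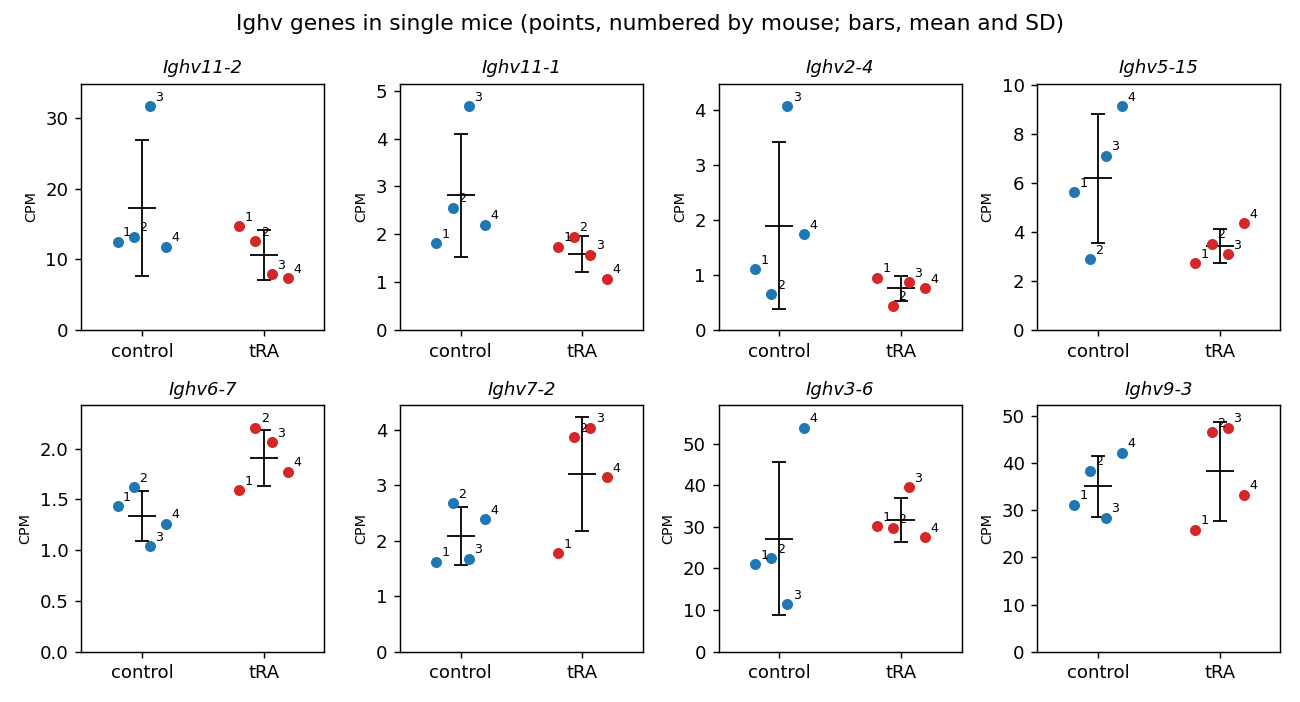
Level in CPM (vertical axes) of 8 Ighv genes in the control and tRA mice (horizontal axes). Each point is 1 mouse with its number, the wide mark is the mean and the bars the SD of the 4 mice; control mouse 3 stands at 31.8 CPM for Ighv11-2, and control mice 3 and 4 mark both ends of the range for Ighv3-6.

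Some genes of low level were also carried by single mice. Control mouse 2 held 29.2% of the CPM summed over 8 mice for Ighv1-39, and control mouse 4 held 28.8% for Ighv1-11 and 28.3% for Ighv1-20. Ighv1-39 was at 0.595, 1.62, 0.549 and 0.420 CPM in control mice 1 to 4, against 0.397 to 0.786 CPM in tRA mice. Ighv1-20 was at 0.568, 1.120, 0.318 and 1.97 CPM in control mice, whereas the tRA mice lay between 0.733 and 0.759 CPM. One mouse held over 25% of the summed CPM in 7 of the 87 Ighv genes (8.05%), beside 2.22% of all genes tested, 3.22% of those in the same range of CPM and 12.8% of Igkv genes tested.

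Ighv5-2 (ENSMUSG00000076633, chr12:113578504-113578990), the Ighv gene closest to the D segments here and one that is known to be rearranged often in B cell precursors, was at 2.92, 4.48, 2.20 and 2.13 CPM in control mice, and at 2.20, 3.02, 3.82 and 2.81 CPM in tRA mice. Its log2 fold change was 0.018 ± 0.26 (SE). At 8.35 CPM per kb it was close to the median gene, although it has the position nearest to the D segments. Ighv1-72 (ENSMUSG00000096074, chr12:115757984-115758461), the gene that dominates the response of C57BL/6 mice to the hapten NP, had 37 counts in all and was not tested in the fit. Its counts were 8, 6, 6 and 5 in control mice, and 4, 4, 3 and 1 in tRA mice. The groups did not overlap, with means of 0.185 ± 0.0237 and 0.0900 ± 0.0445 CPM (SD, n = 4) and the smallest two-sided exact permutation p possible, 0.0286. Of all genes tested, 1.63% had all tRA mice below, and the share among genes not tested is not given here. With 1 to 8 counts per mouse, these values lie near the floor. With no filter on low counts, its FDR was 0.753 in edgeR quasi-likelihood with Benjamini-Hochberg adjustment. It differs at 3 of 396 aligned bases from Ighv1-62-3, which had 20 counts in all, so both counts are uncertain.

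In the families not yet described, the gene with the highest level was Ighv1-9 in Ighv1 (51.2 CPM per kb), Ighv10-1 in Ighv10 (46.7), Ighv4-1 in Ighv4 (26.1), Ighv14-3 in Ighv14 (19.7) and Ighv8-12 in Ighv8 (17.98 CPM per kb). Ighv1-9 was at 20.1 ± 6.31 CPM (SD, n = 4) in control mice and 15.9 ± 3.92 CPM in tRA mice, with a log2 fold change of −0.34 ± 0.24 (SE). This fold change ran from −0.53 to −0.19 with a mouse left out. Ighv4-1 was at 11.1, 11.1, 10.7 and 13.5 CPM in control mice, and at 4.15, 10.9, 13.6 and 11.5 CPM in tRA mice. tRA mouse 1 was thus far below the other 7, and the log2 fold change of −0.21 turned to 0.046 without it. Ighv8-12 was at 8.36, 7.84, 4.22 and 8.24 CPM in control mice, and at 3.30, 6.96, 6.53 and 6.05 CPM in tRA mice. Control mouse 3 and tRA mouse 1 were low in this gene, which lies in the block farthest from the D segments. Ighv15-2, at 3.10 CPM per kb the only gene of its family, was at 1.19, 1.21, 0.636 and 1.20 CPM in control mice, and at 0.550, 1.39, 1.36 and 1.31 CPM in tRA mice, with the same 2 mice low. For Ighv10-1, Ighv14-3 and Ighv13-2 the log2 fold changes were −0.13 ± 0.24, −0.17 ± 0.31 and −0.18 ± 0.33.

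The 6 genes with 0 counts in all 8 mice were Ighv1-16, Ighv1-24, Ighv1-49, Ighv1-62-2, Ighv5-16 and Ighv16-1, the last being the only gene of its family; they are named since they had no count. A count of 0 in the 268992081 counts of all mice allows a level of up to 0.0112 CPM (3 counts, counting error only). Ighv1-62-2 differs at 1 of 359 aligned bases from Ighv1-71, so its reads could have been given to either or discarded, and a count of 0 does not show that the gene is silent. The annotation also lists 70 Ighv pseudogenes, of which 30 had 0 counts and 9 were tested. They summed to 58.4 ± 13.2 CPM (SD, n = 4) in control mice and 53.8 ± 14.0 CPM in tRA mice. Ighv3-2, the most abundant of them, was at 23.4 ± 7.03 and 20.4 ± 4.55 CPM and held 38.9% of the pseudogene counts. Its 62.8 CPM per kb was close to that of Ighv3-1 (63.4), the gene from which it differs at 16 aligned bases (95.4% identity).

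Similarity among the reference transcripts bears on all values of single genes. Pairs of genes within a family shared a median of 84.3% of aligned bases (1540 pairs), against 60.4% between families (4788 pairs). Of the 113 genes, 14 were at least 98% identical to another gene, and their median level was 1.71 CPM per kb, against 10.4 CPM per kb for the 32 genes with a nearest identity from 90% to 95%. For the 44 genes from 95% to 98% the median was 7.16 CPM per kb, and for the 23 genes below 90% it was 3.42 CPM per kb. The median thus rose as similarity fell to the range from 90% to 95%, and was lower below 90%. The part of near copies in these levels was not tested. Over the bases aligned, 0 genes were identical to another. Other annotated genes overlapped Ighv1-5 (Mir7094-2) and Ighv1-62-1 (Gm19331), and both overlapping genes had 0 counts.

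Near the 3′ end of many heavy chain variable genes lies the heptamer TACTGTG, an embedded signal that recombination enzymes can use in the replacement of one variable gene by another. It was searched in the last 60 bases of 1 reference transcript per gene on both strands, as a single motif with no second one to overlap it. On the strand of the transcript sequence it was present in 70 of the 113 Ighv genes and on the other strand in 0, so 61.9% held it. On either strand, 37.1% of the Ighv pseudogenes, 4.55% of Igkv transcripts and 0.937% of protein-coding transcripts held it. It was in 9 of 10 genes of Ighv5, 8 of 9 of Ighv2 and 4 of 4 of Ighv7, but in 0 of 4 of Ighv9, 0 of 5 of Ighv6 and 0 of 2 of Ighv11. Genes that held it had a median of 6.93 CPM per kb and those that did not a median of 4.54 CPM per kb, with the highest gene of all, Ighv9-3, among the latter. The 3′ ends of the 5 most abundant genes and of Ighv11-2 are shown with the heptamer in capitals where it is present (minus strand of chromosome 12, GRCm38, GENCODE M21).
Ighv9-3: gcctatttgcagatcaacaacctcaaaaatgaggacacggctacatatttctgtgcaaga
Ighv7-1: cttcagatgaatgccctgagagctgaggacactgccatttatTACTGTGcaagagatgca
Ighv3-6: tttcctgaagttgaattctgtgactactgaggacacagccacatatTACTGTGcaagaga
Ighv2-2: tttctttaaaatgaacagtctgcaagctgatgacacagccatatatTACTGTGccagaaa
Ighv6-6: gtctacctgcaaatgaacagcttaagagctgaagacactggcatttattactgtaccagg
Ighv11-2: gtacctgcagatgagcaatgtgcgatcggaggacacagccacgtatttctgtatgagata
High levels thus occurred with and without these letters. A match describes the sequence only, and recombination was not measured.

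Genes that act with the Ighv genes were read from lists. Of the heavy chain constant genes, 0 of 8 were called (FDR under 0.1) by edgeR quasi-likelihood with Benjamini-Hochberg adjustment, and 1 had an unadjusted p under 0.05. Ighm, the constant gene of IgM and the most abundant, was at 10295 ± 968 CPM (SD, n = 4) in control mice and 8870 ± 1047 CPM in tRA mice (log2 fold change −0.21 ± 0.11, SE). Igha, the constant gene of IgA, was at 79.8, 108, 104 and 136 CPM in control mice and at 101, 169, 189 and 144 CPM in tRA mice, with overlapping groups and a log2 fold change of 0.50 ± 0.19 (FDR of 0.757 in edgeR quasi-likelihood, Benjamini-Hochberg). The 4 heavy chain joining genes summed to 30.6 ± 6.08 and 36.1 ± 12.2 CPM. Per kb and summed over genes, the level was 1689 CPM per kb for Ighv genes, 4827 for Igkv genes and 5956 for heavy chain constant genes.

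In V(D)J recombination and heavy chain diversification, 0 of 16 genes tested were called, with 10 log2 fold changes above 0 and 6 below and a median of 0.019. Polm, a polymerase of end joining, was the most abundant at 88.6 ± 5.75 CPM (SD, n = 4) in control mice and 85.5 ± 4.14 CPM in tRA mice. Rag1, which cuts the DNA in recombination, was at 1.65, 0.871, 0.867 and 0.743 CPM in control mice, and at 0.702, 0.283, 0.352 and 0.581 CPM in tRA mice. The tRA mice were all below the control mice, but the FDR was 0.757 in edgeR quasi-likelihood with Benjamini-Hochberg adjustment. Its partner Rag2 was at or below 0.0945 CPM in every mouse. Of the 8 pre-B cell markers 4 were tested, Il7r was the most abundant (185 ± 34.0 and 233 ± 26.5 CPM), and the surrogate light chain genes Vpreb1, Vpreb2 and Igll1 had means of at most 0.315 CPM in either group. These markers summed to 180, 167, 170 and 239 CPM in control mice and to 221, 231, 218 and 276 CPM in tRA mice, and they hold T cell expressed Il7r. Among 18 transcription factors of the locus and the B lineage 0 were called, the median was 0.021, and Pax5 was the most abundant (818 ± 115 and 803 ± 33.2 CPM).

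Lists of cell types gave 0 called genes each in the same test. B cell markers had 6 log2 fold changes above 0 and 6 below with a median of −0.0013, and summed to 8320 ± 506 CPM (SD, n = 4) in control mice and 8415 ± 171 CPM in tRA mice. Plasma cell markers had 3 above and 9 below with a median of −0.16, and 5 of the 12 had an unadjusted p under 0.05, all lower in tRA mice (3.55% of all genes tested were lower at that p). The groups did not overlap for 3 of the 12, Mzb1, Tnfrsf17 and Sdc1, with all tRA mice below (1.63% of all genes tested) and log2 fold changes of −0.31 ± 0.080 (SE), −0.78 ± 0.26 and −0.17 ± 0.081. The summed level of the 12 markers was 1321, 1266, 1286 and 1456 CPM in control mice, and 1166, 1300, 1034 and 1023 CPM in tRA mice. Jchain, which joins IgM and IgA units and was the most abundant, was at 574, 537, 604 and 722 CPM in control mice, and at 367, 541, 428 and 436 CPM in tRA mice. Only tRA mouse 2 reached into the range of the control mice, and the log2 fold change was −0.46 ± 0.13 (SE; FDR of 0.757 in edgeR quasi-likelihood, Benjamini-Hochberg). No plasma cell marker was at 0. The part of plasma cells in the Ighv levels was not tested.

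Germinal centre markers summed to 177 ± 19.1 and 196 ± 36.6 CPM (SD, n = 4) in control and tRA mice, with Bcl6 the most abundant. For erythroid markers the median was 0.43 with Hbb-bs the most abundant, and for T cell markers 0.11 with Trac the most abundant. Macrophage and dendritic cell markers had a median of −0.03, with Csf1r the most abundant. Neutrophil markers were at 897, 1171, 1164 and 1012 CPM in sum in control mice, and at 533, 575, 541 and 888 CPM in tRA mice, so the groups did not overlap. The median over the 8 genes was −0.67, with Ngp the most abundant. tRA mouse 1, the lowest for the Ighv genes, was also the lowest here, but tRA mouse 3 was close to it at 541 CPM. In the Ighv sum these mice were far apart, at 389 CPM in tRA mouse 1 and 715 CPM in tRA mouse 3. The part of neutrophils in the Ighv levels was not tested. In B-1 cell markers the median was −0.12, with 2 above 0 and 5 below.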

How the data were processed

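Total splenocytes of 4 control and 4 tRA mice were sequenced, and the authors deposited raw counts per gene. The study's methods name ea-utils, Btrim, Bowtie2, Tophat2 and HTSeq, whereas the submitters' processing notes list STAR 2.5.2b, featureCounts 1.5.1 and DESeq2 1.26.0 on GRCm38; use of strand and of reads with several positions is not given in the sources used here. A deposited DESeq2 table with means, fold changes and p-values was not used. GENCODE M21 had an entry for 51633 of the 51826 identifiers and gave symbols, positions and transcripts. The counts were fitted in R 4.3.3 with edgeR 4.0.16 (filterByExpr with its minimum of 10 counts, TMM, quasi-likelihood test, Benjamini-Hochberg over 16484 genes, FDR under 0.1), and DESeq2 1.42.0 was an alternative. The script was tested on simulated data. Replicate mice were compared pairwise and always differed beyond sampling noise (chi-square per degree of freedom over all genes 12.9 to 65.4). Sums, shares and effective numbers were not tested between groups; Dixon's ratio was applied within groups.

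The Ighv genes and the gene lists were chosen with earlier results of these data known. Named Ighv genes were the 8 highest per kb of exon, the highest of each family with a gene tested, the 4 with the lowest unadjusted p in each direction, the 5 in which 1 mouse held the largest share, and Ighv5-2, Ighv11-2, Ighv12-3, Ighv7-1 and Ighv1-72; other named genes were the most abundant of each list, any list gene called, and genes named after their values were seen: Rag1, Rag2, Igha, Ighd, Zbtb32, Cd9, Bhlhe41, Plscr1, Ctla4, Irf4, Mzb1, Tnfrsf17, Sdc1, Vpreb1, Vpreb2, Igll1, Ighv2-5, Ighv3-2, Ighv1-62-3, Ighv1-71 and the genes at 0. Ighe was also named, as were Ighv1-5, Ighv1-62-1, Mir7094-2 and Gm19331 for their overlaps. Promoter and recombination signal sequences and proteins were not analysed here, and 1 gene planned for 2 of the lists was not used here.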

Additional observations from a re-analysis of the deposited data

Results flagged for a closer look

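The lowest or highest mouse stood far from the other 3 of its group, by Dixon's ratio of its gap to the whole range, in 9 values. Chance gives this in about 1 of 20 groups, and 84 groups were examined (29 named Ighv genes, 11 families of more than 1 gene, the Ighv sum and the effective number, each in control and tRA mice), for which 4.2 would be given by chance. That number does not hold for this set, since 5 of the 29 genes (Ighv2-4, Ighv1-39, Ighv1-11, Ighv11-2 and Ighv1-20) were named because 1 mouse held a large share of their level. Outside these 84, 2 sums of marker lists passed the same bound in the tRA group, neutrophil markers with mouse 4 apart (0.883) and B-1 cell markers with mouse 3 apart (0.868). In the control group, mouse 3 stood apart for Ighv11-2 (ratio 0.930, 31.8 CPM against 11.8 to 13.2 CPM), for the summed Ighv11 family (0.922, 36.4 CPM against 14.0 to 15.7 CPM), for Ighv15-2 (0.960, 0.636 CPM against 1.19 to 1.21 CPM) and for Ighv8-12 (0.875, 4.22 CPM against 7.84 to 8.36 CPM). The family value and that of Ighv11-2 are nearly the same measurement. Control mouse 4 stood apart for Ighv4-1 (0.860, 13.5 CPM against 10.7 to 11.1 CPM) and control mouse 2 for Ighv1-39 (0.854, 1.62 CPM against 0.420 to 0.595 CPM). In the tRA group, mouse 1 stood apart for Ighv2-9 (0.846, 11.1 CPM against 19.8 to 21.4 CPM), for Ighv15-2 (0.914, 0.550 CPM against 1.31 to 1.39 CPM) and for the summed Ighv1 family (0.870, 81.5 CPM against 132 to 139 CPM). Control mouse 3 and tRA mouse 1 thus account for 7 of the 9. Over all 87 Ighv genes tested, 1 mouse stood apart in 18 of 174 groups (10.3%), beside 5.29% for all genes tested and 9.04% for Igkv genes tested.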

How the results depend on the processing

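Under every alternative, from DESeq2, RLE factors, the replicate block, no filter and a minimum of 10 counts in all mice to each mouse left out in turn, 0 Ighv genes had an FDR under 0.1. Their lowest FDR over all these fits was 0.227, and between 3 and 12 had an unadjusted p under 0.05, the 12 with no filter, where 107 were tested. Except for DESeq2, the share of all genes at that p is not given here, so these counts give no result about Ighv genes. Of all genes, 27 were called by DESeq2 and 6 with no filter, against 0, and 0 to 3 with a mouse left out. Leaving out mice moved the median log2 fold change from −0.19 to 0.069, the log2 ratio of the sums from −0.21 to 0.049 and the difference in effective number from −0.55 to 1.08.

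Of 363 log2 fold changes of the 28 named genes tested, 340 kept their direction and 23 reversed, 22 of them with a mouse left out. Over the mice left out, the ranges of the 13 genes that reversed were −0.12 to 0.20 for Ighv3-1, −0.37 to 0.061 for Ighv14-3, −0.16 to 0.15 for Ighv5-6, −0.36 to 0.12 for Ighv13-2, −0.62 to 0.18 for Ighv1-39, −0.039 to 0.79 for Ighv3-6, −0.065 to 0.35 for Ighv15-2, −0.13 to 0.29 for Ighv5-2, −0.33 to 0.050 for Ighv10-1, −0.43 to 0.28 for Ighv12-3, −0.70 to 0.16 for Ighv1-20, −0.35 to 0.13 for Ighv7-1 and −0.39 to 0.046 for Ighv4-1. The cause was not tested.

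Deviations of mice of the same number correlated by 0.157, −0.0229, −0.0140 and 0.259 for numbers 1 to 4, and both mice correlated best with each other for number 4 alone; the main fit has no pairs. With the replicate block, Ighv3-1 reversed to −0.0089, 8 Ighv genes had an unadjusted p under 0.05, and 0 Ighv genes and 0 of all genes were called. The share of all genes at that p under the block is not given here either, so the 8 give no result.

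Low counts limit the 26 genes not tested, and near copies limit values of single genes.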
